A study of Mus musculus with 162 samples.

Results

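Collagen genes were followed in cheek skin, trigeminal ganglion (TG) and thoracic spinal cord of mice treated with MC903 (calcipotriol, a vitamin D analog that induces an itchy dermatitis resembling atopic dermatitis) or with its ethanol vehicle. The members are the protein-coding genes whose symbol is Col, a number, the letter a and a number, and 44 of the 46078 genes in each count file met this rule. They were divided by textbook class into 11 fibrillar chains, 10 chains of basement membranes and their anchoring structures, 9 fibril-associated collagens with interrupted triple helices (FACITs), 6 type VI (beaded filament) chains, 3 hexagonal network chains and 5 transmembrane and remaining chains. Of 162 bulk RNA-seq libraries, 144 were used, 61 from skin, 56 from TG and 27 from spinal cord.

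The mice were C57BL/6 males of 8 to 12 weeks, treated daily on the cheek with 20 µL of 0.2 mM MC903 or ethanol, or with 40 µL on the rostral back where spinal cord was taken. Uninjected wild-type skin was collected 6 hours after the first treatment (4 MC903 and 4 ethanol libraries) and on days 2 (3 and 2), 5 (3 and 3) and 8 (5 and 6, from 2 cohorts). At day 8, wild-type mice were also injected daily with PBS (skin 2 and 3 libraries) or with 250 µg of aGr1, an antibody that depletes neutrophils (4 and 4), beginning one day before the first MC903 application. Skin of uninjected TSLPR KO mice, which lack the receptor of the cytokine TSLP (Crlf2 tm1Jni, backcrossed to C57BL/6), was sampled at day 8 (3 and 2) and day 12 (4 and 3), and skin of uninjected BLT1 KO mice, which lack the leukotriene B4 receptor, at day 8 (3 and 3). Ipsilateral TG was collected in the same groups except BLT1 KO (4 and 4 at 6 hours, 3 and 2 on day 2, 3 and 3 on day 5, 5 and 5 on day 8, 4 and 3 with PBS, 4 and 4 with aGr1, and 2 and 2 on day 8 and 4 and 4 on day 12 in TSLPR KO). One ethanol TG library of the day 8 cohort with bracketed titles carries the numbers of more than one ganglion in its title. Spinal cord was collected at day 8 from uninjected (4 and 5), PBS-injected (2 and 2) and aGr1-injected (8 and 6) wild-type mice. The vehicle mice of each genotype and injection carried the same deletion or received the same injection as the MC903 mice.

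Collagens are triple-helical proteins built from 3 alpha chains. Types I, III and V assemble into the fibrils that give the dermis its tensile strength, and FACITs such as types XII, XIV and XVI sit on the surface of those fibrils. Type IV collagen forms the sheet of basement membranes, type VII builds the anchoring fibrils that tie the epidermal basement membrane to the dermis, and type XVII is a transmembrane collagen of hemidesmosomes in basal keratinocytes. Type VI collagen forms beaded microfibrils around cells, types VIII and X form hexagonal lattices, and types XIII, XXIII and XXV are membrane-bound. In skin, fibroblasts make most fibrillar collagen, while keratinocytes and endothelial cells make basement membrane chains.

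Libraries held 15931871 to 67342879 gene counts (median 27654801.5). Expression is given as cpm (gene counts scaled to 1e6 per library), scaled by edgeR's TMM factors within each comparison, and all tests are edgeR quasi-likelihood tests across all genes with Benjamini-Hochberg adjustment, called at an adjusted p under 0.05 in skin and spinal cord and under 0.1 in TG, the thresholds the study set for those tissues. Where nothing states that libraries came from separate animals, p-values measure the spread between libraries. Crlf2 in skin stood at 0.0691 to 1.34 cpm in 12 TSLPR KO libraries and at 2.24 to 15.4 cpm in 43 wild-type libraries, but in TG the ranges overlapped (0 to 2.06 cpm in 12 TSLPR KO libraries, 0.117 to 7.58 cpm in 44 wild-type libraries). Ltb4r1, which encodes BLT1, stood at 2.33 to 15.1 cpm in the 6 libraries labelled BLT1 KO and at 2.52 to 77.6 cpm in wild-type skin. Its RNA level therefore does not check that label, since the deleted part of the gene is not given in the sources used here. One MC903 library of day 2 skin (replicate 3) stood apart. Its 8 neuron markers summed to 2220 cpm against at most 45.5 cpm in the other 4 libraries of that day, and its Col1a1 level was 698 cpm against 6551 and 8226 cpm in the other MC903 libraries. In TG, MC903 replicate 1 of TSLPR KO day 8 and MC903 replicate 1 of 6 hours held more skin and muscle RNA than the libraries beside them, with keratinocyte markers at 308 cpm against 15.2 to 19.8 cpm and at 671 cpm against 71.7 to 156 cpm.

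In ethanol-treated uninjected wild-type mice, collagen RNA was far more abundant in skin than in the nervous tissues. The 44 genes took 1.01 to 4.14% of gene counts in 15 skin libraries (median 1.70%), 0.119 to 0.193% in 14 TG libraries (median 0.143%) and 0.0437 to 0.0779% in 5 spinal cord libraries (median 0.0691%), and these ranges did not overlap. Fibrillar chains alone took a median of 1.42% in skin. Per kilobase of exon, Col1a1 led in skin with a median of 755 cpm per kb (range 328 to 1846), followed by Col3a1 at 450.4 and Col1a2 at 386, whose ranges overlapped with that of Col1a1. Col17a1 came next at 89.7 cpm per kb (50.8 to 138), below the lowest Col1a2 library (196), followed by Col6a1 at 63.7 and Col4a1 at 34.8, whose ranges overlapped with those of the gene before. In TG the order changed. Col1a2 (26.1 cpm per kb), Col28a1 (19.1), Col1a1 (18.8) and Col4a1 (13.7) stood highest, and Col28a1, a von Willebrand factor A domain collagen found in peripheral nerve, ranked 2 in TG, 26 in skin and 39 in spinal cord. In spinal cord Col1a1 (11.1 cpm per kb) and Col1a2 (10.9) led, followed by Col6a1 (5.58), Col11a2 (5.52) and Col23a1 (4.58). In both nervous tissues the ranges of genes next to each other in these orders overlapped.

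Several members lie beside one another in the genome (GENCODE M21 coordinates, GRCm38). Col4a4 (chr1:82448423-82586849, minus strand) and Col4a3 (chr1:82586921-82722059, plus strand) stand head to head with 71 bases between them, Col4a6 (chrX:141165403-141474076, minus) and Col4a5 (chrX:141475385-141689234, plus) head to head with 1308 bases between them, and Col4a1 and Col4a2 on chromosome 8 head to head with an overlap of 22 bases. Col6a6, Col6a5 and Col6a4 follow each other on the minus strand of chromosome 9 with gaps of 27917 and 28810 bases, and Col3a1 and Col5a2 on chromosome 1 lie tail to tail with a gap of 24614 bases. Since strand use in counting is not given in the sources used here, reads in the Col4a1 and Col4a2 overlap cannot be assigned to one strand. Promoter sequence (250 bases before the RefSeq start) was on hand for 35 of the 44 genes. Shown 5′ to 3′ are the interval shared by Col4a4 and Col4a3, the promoter of Col4a6 (the type IV gene that fell most often), and those of Col23a1, which rose on days 5 and 8, and Col3a1, which fell at 6 hours. Capitals mark matches on either strand to the TATA motif TATAAA, to the motif CCAAT of the factor NF-Y, to the GC box GGGCGG, or to the hexamer AGGTCA that nuclear receptors such as the vitamin D receptor recognise.
Col4a4 to Col4a3 interval (chr1:82586850-82586920, plus strand): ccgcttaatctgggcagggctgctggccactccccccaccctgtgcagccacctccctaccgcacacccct
Col4a6 promoter (chrX:141474077-141474326, minus strand): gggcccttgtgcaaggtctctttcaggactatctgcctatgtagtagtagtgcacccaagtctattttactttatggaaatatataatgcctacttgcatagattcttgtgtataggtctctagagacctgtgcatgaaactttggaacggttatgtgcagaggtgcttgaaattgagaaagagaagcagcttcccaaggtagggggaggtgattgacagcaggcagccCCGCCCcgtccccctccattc
Col23a1 promoter (chr11:51289670-51289919, plus strand): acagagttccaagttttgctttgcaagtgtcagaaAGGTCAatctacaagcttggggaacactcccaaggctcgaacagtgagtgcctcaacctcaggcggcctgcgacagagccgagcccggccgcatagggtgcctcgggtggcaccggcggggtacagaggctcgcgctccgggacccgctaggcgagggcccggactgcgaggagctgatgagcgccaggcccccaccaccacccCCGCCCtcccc
Col3a1 promoter (chr1:45311288-45311537, plus strand): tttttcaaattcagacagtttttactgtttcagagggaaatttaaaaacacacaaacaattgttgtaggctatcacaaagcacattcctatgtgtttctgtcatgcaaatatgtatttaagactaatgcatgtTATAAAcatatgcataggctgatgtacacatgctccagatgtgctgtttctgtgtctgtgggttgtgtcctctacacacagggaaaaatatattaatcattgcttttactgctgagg
None of these motifs lies in the 71-base interval, the Col4a6 window holds 1 GGGCGG on its reverse strand, the Col23a1 window holds 1 AGGTCA and 1 reverse GGGCGG, and the Col3a1 window holds 1 TATAAA. Of the 35 collagen promoters, 60% held GGGCGG against 32.7% of all 32851 promoters of this length, 34.3% held CCAAT against 33.8%, 22.9% held AGGTCA against 14.02%, and 14.3% held TATAAA against 12.4%.

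The first question was which collagen genes differed between MC903 and ethanol skin, and when. Of the 44 genes, 36 were called in at least 1 of the 9 skin comparisons, 8 in none, and 4 in both directions in different comparisons. The share of all genes called at least once was not counted, so these numbers are not a result about the members. At 6 hours 1 gene rose and 10 fell of 44 tested, where 5.51% of all genes rose and 7.47% fell. One fit over all 4 wild-type days called 2 of these 11 at 6 hours, Col8a1 and Col17a1 and no fibrillar gene, and leaving out 1 library gave 3 to 7 calls without ethanol replicate 2 or 3 or any 1 MC903 library, and 14 without ethanol replicate 1 or 4. On day 2 none of 43 was called, as was no gene at all (0% of all genes). With an unadjusted p under 0.05 there were 5 members on that day, and 1190 of 24580 genes. On day 5, 3 rose and 13 fell of 42, against 8.15% and 6.78% of all genes. On day 8, 6 rose and 12 fell of 44, against 12.2% and 11.2% (23.4% in either direction). The median log2 fold change of the members was -0.24 at 6 hours, -0.48 on day 5 and -0.44 on day 8, beside 0.00, -0.03 and -0.03 for all genes. The share of members that fell was above that of all genes at 6 hours, day 5 and day 8, while the share that rose was below it at 6 hours and close to it on days 5 and 8.

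**Figure D1:**
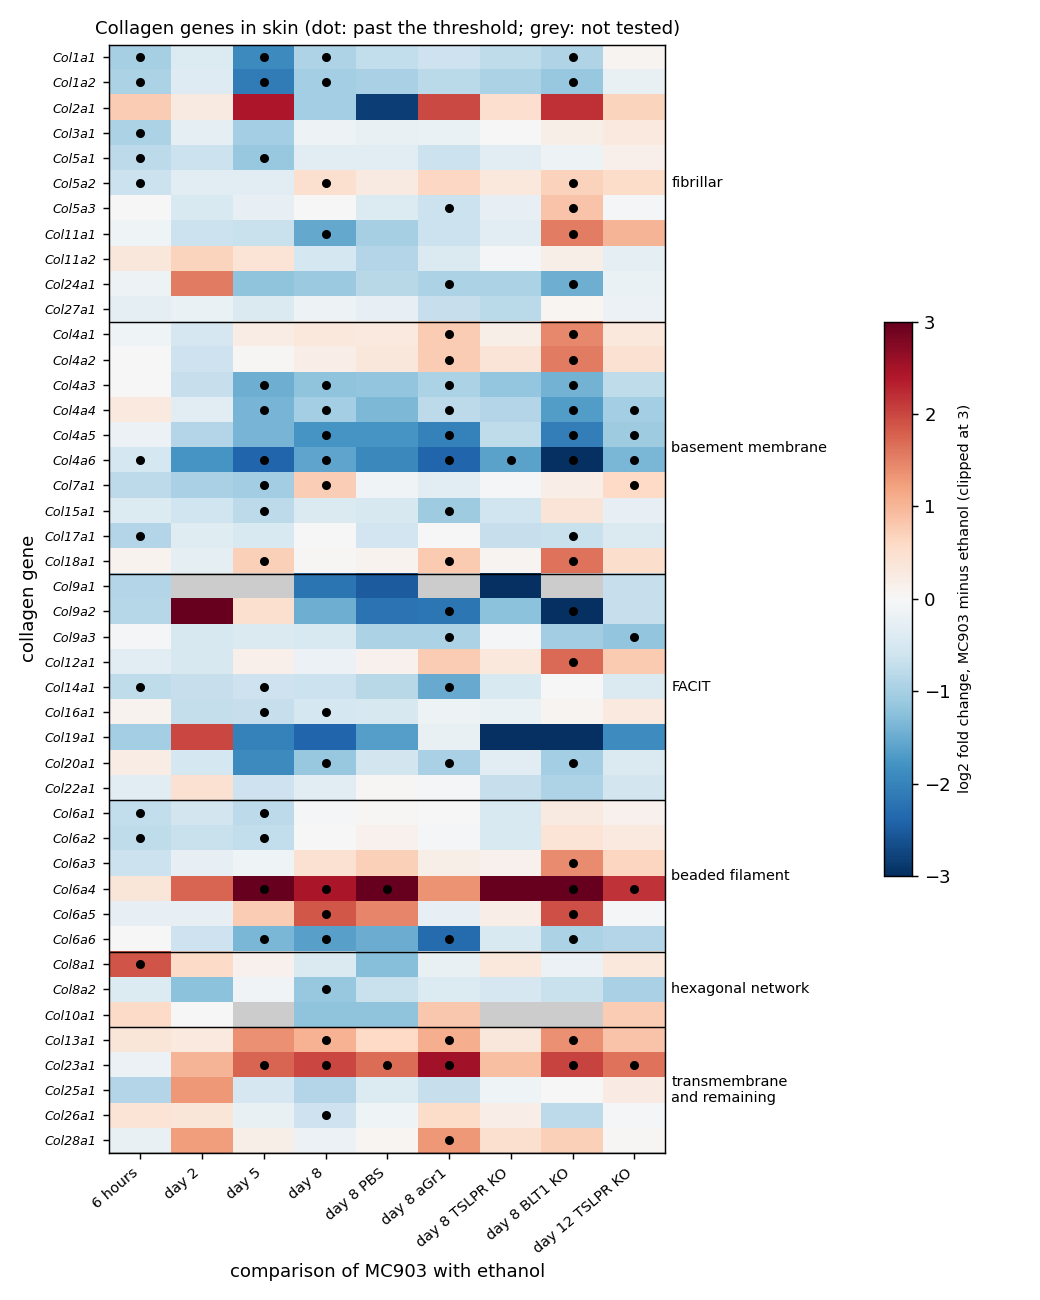
Log2 fold change of MC903 over ethanol for each of the 44 collagen genes (rows, by class) in the 9 skin comparisons (columns), clipped at 3 in either direction. A dot marks an adjusted p under 0.05 and grey a gene not tested. Col4a3 to Col4a6 are lower and Col23a1 higher in most columns, while genes within the fibrillar class differ in direction at day 8.

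Fibrillar collagens are the most abundant class, and 5 of the 10 genes that fell at 6 hours belong to it. At that time Col1a1, the major chain of type I collagen, stood at 2826, 3534, 2424 and 2149 cpm with MC903 and 3161, 6986, 7218 and 4448 cpm with ethanol. The ranges overlapped through ethanol replicate 1, and the log2 fold change was -0.997 ± 0.27 (SE, adjusted p = 0.040). Col1a2, its partner chain, stood at 3126, 3769, 2704 and 2639 cpm with MC903 and 4205, 6935, 7631 and 4703 cpm with ethanol, a log2 fold change of -0.94 ± 0.22 (SE, adjusted p = 0.024) without overlap. Col3a1, which forms the fine fibrils of young dermis, stood at 2849, 3809, 2832 and 2738 cpm with MC903 and 4279, 6688, 7398 and 5144 cpm with ethanol (-0.94 ± 0.20 (SE, adjusted p = 0.017)), again without overlap. Col5a1 (-0.79 ± 0.18 (SE, adjusted p = 0.020)) and Col5a2 (-0.64 ± 0.15 (SE, adjusted p = 0.024)), chains of the type V collagen that nucleates fibrils, fell without overlap too. These 5 were all the calls among 11 fibrillar genes. Leaving out 1 library at a time, Col3a1 was lost without MC903 replicate 1 or ethanol replicate 3, while Col1a1 was kept in 2 of 8 and Col1a2 in 3 of 8 fits, with log2 fold changes of -1.19 to -0.81 and -1.07 to -0.77. Beside this, 6 of 10 fibroblast markers fell (summed 1327 to 1769 cpm with MC903 and 2151 to 3358 cpm with ethanol) and 4 of 10 skeletal muscle markers fell (5687 to 9997 cpm with MC903 and 8801 to 13695 cpm with ethanol). None of these markers was at or under 3 counts in every skin library, and their part in the result was not tested. In bulk tissue, fewer cells of a type and less RNA per cell cannot be told apart.

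On day 2 the fibrillar genes were not called, and 2 or 3 libraries a group left wide errors. Col1a1 stood at 6551, 8226 and 698 cpm with MC903 and 6891 and 6769 cpm with ethanol (-0.41 ± 0.98 (SE, adjusted p = 0.98)). Without the MC903 library that stood apart, 60 genes were called in all, 57 higher and 3 lower, none of them a collagen gene. On day 5 both type I genes fell. Col1a1 stood at 2566, 1978 and 2175 cpm with MC903 and 8990.1, 11124 and 5072 cpm with ethanol (-1.91 ± 0.34 (SE, adjusted p = 0.010)), and Col1a2 at 2772, 2039 and 1894 cpm with MC903 and 11729, 11842 and 4932 cpm with ethanol (-2.09 ± 0.39 (SE, adjusted p = 0.013)). Neither gene overlapped between groups, and both calls were lost without MC903 replicate 2 or without MC903 replicate 3. Col5a1 stood at 145, 127.9 and 130.5 cpm against 302, 353 and 228 cpm (-1.13 ± 0.20 (SE, adjusted p = 0.010)), and was lost without MC903 replicate 2 (log2 fold changes over the left-out libraries -1.26 to -0.98). Col3a1 missed the threshold, at 4489.9, 3851 and 4104 cpm with MC903 and 9236, 11296 and 4803 cpm with ethanol (-1.03 ± 0.34 (SE, adjusted p = 0.085)). On this day 6 of 10 muscle markers (4851 to 9131 cpm with MC903 and 12533 to 24676 cpm with ethanol), 7 of 8 adipocyte markers (384 to 511 cpm with MC903 and 678 to 1605 cpm with ethanol) and 1 of 10 fibroblast markers (1989.7 to 3384 cpm with MC903 and 2961 to 4835 cpm with ethanol) fell, which was not tested as a cause.

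On day 8 the fibrillar calls went in both directions. Col1a2 stood at 1807, 3333, 3042, 2518 and 1872 cpm with MC903 and at 2173 (lowest), 4672 (median) and 9159 (highest) cpm with ethanol (-1.01 ± 0.27 (SE, adjusted p = 0.017)), and its call was kept without any 1 of the 11 libraries. Col1a1 stood at 1504, 3256, 3209, 2768 and 1849.6 cpm with MC903 and 1924 (lowest), 4613 (median) and 8543 (highest) cpm with ethanol (-0.93 ± 0.31 (SE, adjusted p = 0.043)), a call kept in 3 of 11 such fits. Both genes overlapped between groups. In the cohort with bracketed titles alone Col1a2 had a log2 fold change of -1.18 ± 0.36 (SE, adjusted p = 0.059) and in the other cohort of -0.83 ± 0.32 (SE, adjusted p = 0.16). Col11a1, a minor fibril chain best known from cartilage, ranged over 3.38 to 22.2 cpm with MC903 and 19.5 to 54.2 cpm with ethanol (-1.54 ± 0.29 (SE, adjusted p = 0.0020)), and was called in both cohorts alone. Col5a2 moved the other way, from 197 (lowest), 267 (median) and 335 (highest) cpm with ethanol to 318, 420.3, 522, 345 and 295 cpm with MC903 (0.48 ± 0.16 (SE, adjusted p = 0.043)), a call kept in 5 of 11 fits. Col3a1, at 2070.3, 4468, 5615, 3465 and 3637 cpm with MC903 and 2646 (lowest), 4273 (median) and 5698 (highest) cpm with ethanol, had a log2 fold change of -0.14 ± 0.25 (SE, adjusted p = 0.72), and Col5a1 of -0.32 ± 0.23 (SE, adjusted p = 0.34). The summed level of the 11 genes was 5845 to 12742 cpm with MC903 and 7164 to 24084 cpm with ethanol. All 10 muscle markers fell on this day (2832 to 5133 cpm with MC903 and 4647 to 19289 cpm with ethanol), as did 6 of 8 adipocyte markers (276 to 485 cpm with MC903 and 689 to 1014 cpm with ethanol), while 2 of 10 fibroblast markers rose and 2 fell (1811 to 2641 cpm with MC903 and 1745 to 3425 cpm with ethanol). Their part was not tested.

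Within the basement membrane class, the type IV chains behaved as 2 sets. Col4a1 and Col4a2, the chains present in nearly every basement membrane, were not called on any day in uninjected wild-type skin, whereas Col4a3 to Col4a6, the chains of specialised membranes, were lower. Col4a6 fell at 6 hours (10.4, 12.1, 11.2 and 9.84 cpm with MC903, 16.1, 17.5, 16.8 and 12.2 cpm with ethanol, -0.52 ± 0.13 (SE, adjusted p = 0.031)), though the call was kept in 2 of 8 fits. On day 2 it stood at 4.998, 4.99 and 2.50 cpm against 13.7 and 14.9 cpm, with a log2 fold change of -1.78 ± 0.43 (SE, adjusted p = 0.64) that missed the threshold. Without the library that stood apart this was -1.52 (adjusted p = 0.216). Pairing the remaining libraries by replicate number gave -1.52 (adjusted p = 0.0213), but on 2 pairs, too few to take the numbers as pairs. On day 5 Col4a6 stood at 1.58, 3.01 and 3.84 cpm with MC903 and 14.1, 18.4 and 11.5 cpm with ethanol (-2.38 ± 0.35 (SE, adjusted p = 0.0046)), a gap kept without any 1 of the 6 libraries. Col4a3 fell on that day from 11.2, 9.80 and 5.28 cpm with ethanol to 3.50, 2.91 and 3.12 cpm with MC903 (-1.47 ± 0.31 (SE, adjusted p = 0.018)), and Col4a4 from 21.8, 20.1 and 10.7 cpm to 6.48, 7.26 and 6.13 cpm (-1.40 ± 0.28 (SE, adjusted p = 0.016)). These calls were kept in 1 of 6 and 2 of 6 fits, with log2 fold changes of -1.70 to -1.25 and -1.64 to -1.22. Col4a5 stood at 3.96, 6.54 and 13.9 cpm with MC903 and 20.2, 24.4 and 19.4 cpm with ethanol, with an adjusted p of 0.058.

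At day 8 all 4 of these chains fell, none overlapped between the 5 MC903 and 6 ethanol libraries, and every call was kept without any 1 library. Col4a3 stood at 2.68, 4.38, 2.06, 3.39 and 3.21 cpm with MC903 and 5.95 (lowest), 6.81 (median) and 9.79 (highest) cpm with ethanol (-1.21 ± 0.21 (SE, adjusted p = 0.0011)), and Col4a4 at 3.63, 10.4, 5.25, 7.81 and 6.36 cpm with MC903 and 11.5 (lowest), 12.2 (median) and 21.3 (highest) cpm with ethanol (-1.03 ± 0.26 (SE, adjusted p = 0.011)). Col4a5 stood at 5.43, 3.01, 4.92, 13.1 and 14.5 cpm with MC903 and 19.3 (lowest), 25.1 (median) and 32.4 (highest) cpm with ethanol (-1.76 ± 0.25 (SE, adjusted p = 0.00034)). Col4a6 stood at 3.08, 2.10, 2.60, 8.12 and 8.79 cpm with MC903 and 11.6 (lowest), 13.1 (median) and 16.7 (highest) cpm with ethanol (-1.57 ± 0.28 (SE, adjusted p = 0.0016)). Within the cohort with bracketed titles Col4a6 had a log2 fold change of -2.35 ± 0.20 (SE, adjusted p = 0.00042) and in the other cohort of -0.71 ± 0.23 (SE, adjusted p = 0.090), and Col4a4 of -1.24 ± 0.40 (SE, adjusted p = 0.071) and -0.80 ± 0.20 (SE, adjusted p = 0.039), while Col4a3 and Col4a5 were called in each. All 18 genes called on day 8 had the same direction in both cohorts. They were chosen by the fit of both cohorts together, so this agreement is in part fixed by that choice and is not a replication. The head-to-head partners fell together, Col4a3 with Col4a4 and Col4a5 with Col4a6. By contrast, Col4a1 stood at 254, 356, 458, 257 and 311 cpm with MC903 and 201 (lowest), 256 (median) and 316 (highest) cpm with ethanol (0.32 ± 0.16 (SE, adjusted p = 0.17)), and Col4a2 at 187, 226, 332, 187 and 212 cpm with MC903 and 129.2 (lowest), 198 (median) and 266 (highest) cpm with ethanol (0.20 ± 0.19 (SE, adjusted p = 0.51)). On this day 7 of 8 hair follicle markers fell (673 to 10449 cpm with MC903 and 8539.9 to 24476 cpm with ethanol) and 6 of 8 endothelial markers rose (219 to 441 cpm with MC903 and 141 to 210.3 cpm with ethanol), and their part was not tested. At day 5 no hair follicle marker was called, over wide and overlapping ranges (498 to 10351 cpm with MC903 and 628 to 7087 cpm with ethanol). The part of these markers on that day was not tested either.

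**Figure D2:**
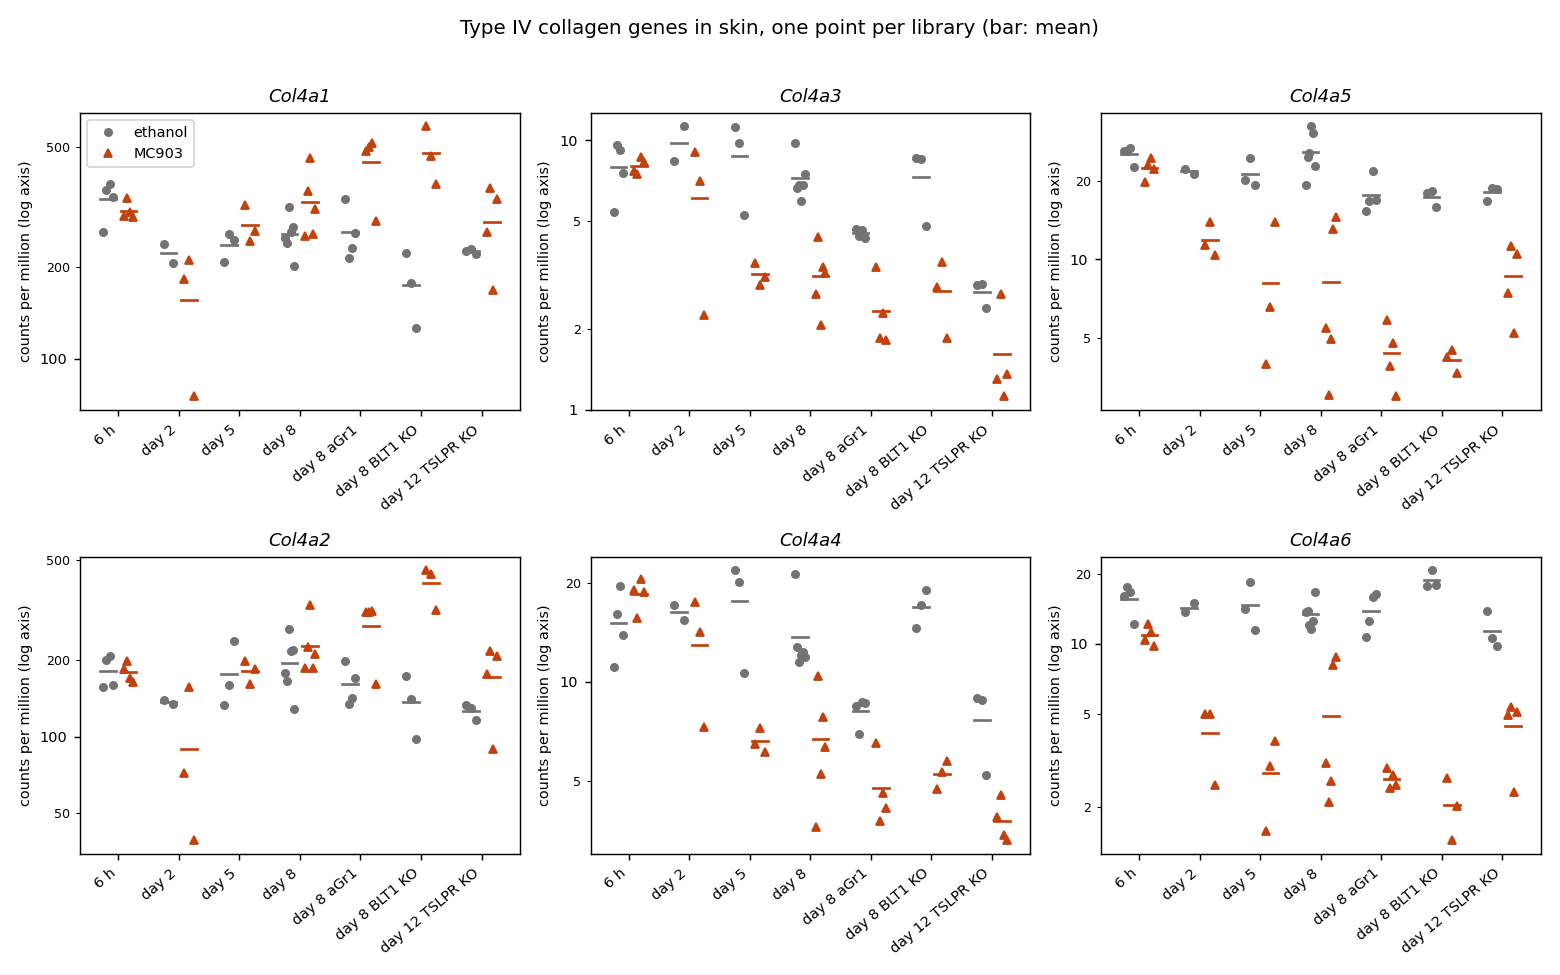
Expression of the 6 type IV collagen genes in skin (cpm, log axis), 1 point for each library, with MC903 and ethanol libraries side by side for the 7 comparisons shown. Col4a5 and Col4a6 are lower with MC903 from day 5, without overlap at day 8, and Col4a1 and Col4a2 are higher with MC903 in the libraries labelled BLT1 KO.

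Collagens of the dermal-epidermal junction changed on different days. Col17a1, the hemidesmosome collagen, fell at 6 hours from 489, 658, 509 and 363 cpm with ethanol to 295, 284, 241 and 286 cpm with MC903 (-0.87 ± 0.17 (SE, adjusted p = 0.012)), without overlap and in every fit without 1 library. At day 8 it stood at 510.0, 527, 606, 496 and 522 cpm with MC903 and 464 (lowest), 544 (median) and 601 (highest) cpm with ethanol (-0.02 ± 0.12 (SE, adjusted p = 0.93)). No keratinocyte marker of 8 was called at 6 hours (10896 to 13077 cpm with MC903 and 12434 to 14400.2 cpm with ethanol), and the part of these markers was not tested. Col7a1, the anchoring fibril collagen, fell on day 5 from 82.5, 90.3 and 104 cpm to 43.3, 45.4 and 46.1 cpm (-1.04 ± 0.15 (SE, adjusted p = 0.0045)) and rose on day 8 from 39.7 (lowest), 45.5 (median) and 57.1 (highest) cpm with ethanol to 117.4, 99.5, 109, 63.8 and 41.8 cpm with MC903 (0.73 ± 0.16 (SE, adjusted p = 0.0062)). The day 5 groups did not overlap and the day 8 groups did. Both calls were kept in every fit without 1 library, and on day 8 the cohort with bracketed titles alone gave a log2 fold change of 1.07, which was called, and the other cohort 0.27, which was not. Keratinocyte markers were higher on both days, 3 of 8 rising and 1 falling on day 5 (21959 to 26179 cpm with MC903 and 11763 to 16427 cpm with ethanol) and again on day 8 (19458 to 31640.3 cpm with MC903 and 11324 to 17865 cpm with ethanol). Col15a1 (-0.78 ± 0.16 (SE, adjusted p = 0.019)) fell and Col18a1 (0.71 ± 0.18 (SE, adjusted p = 0.034)), the precursor of endostatin, rose on day 5, calls kept in 2 of 6 and 1 of 6 fits.

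Type VI collagen also divided. Of Col6a1, Col6a2 and Col6a3, the chains of the common heterotrimer, the former pair fell at 6 hours and on day 5. At 6 hours Col6a1 stood at 192, 199.9, 173 and 172 cpm with MC903 and 212, 366, 409.5 and 245 cpm with ethanol (-0.74 ± 0.20 (SE, adjusted p = 0.036)), and Col6a2 at 171, 193, 160.1 and 163 cpm and 202, 345, 390.0 and 234 cpm (-0.77 ± 0.19 (SE, adjusted p = 0.030)). Neither overlapped, and each call was kept in 2 of 8 fits. On day 5 Col6a1 (219, 191 and 175 cpm against 310.2, 335 and 358 cpm, -0.78 ± 0.17 (SE, adjusted p = 0.021)) and Col6a2 (203, 176 and 127.95 cpm against 271, 289.9 and 284 cpm, -0.74 ± 0.20 (SE, adjusted p = 0.046)) were again lower, kept in 2 of 6 and 0 of 6 fits. Col6a3 was not called on either day, at -0.66 ± 0.21 (SE, adjusted p = 0.064) and -0.13 ± 0.20 (SE, adjusted p = 0.69), and on day 8 it stood at 272, 462, 711, 369.8 and 316 cpm with MC903 and 213 (lowest), 314 (median) and 368 (highest) cpm with ethanol (0.45 ± 0.22 (SE, adjusted p = 0.16)). On day 8 Col6a1 (-0.03 ± 0.19) and Col6a2 (-0.02 ± 0.20) were not called.

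The 3 neighbouring genes on chromosome 9, which encode alternative chains of type VI collagen, changed in different directions. Col6a4 was near the detection limit in ethanol skin and rose on day 5 from 0.214, 0.111 and 0.189 cpm to 11.3, 7.09 and 6.24 cpm (5.54 ± 0.41 (SE, adjusted p = 0.00023)). On day 8 it stood at 2.96, 5.23, 3.71, 2.71 and 3.02 cpm with MC903 and 0.147 (lowest), 0.661 (median) and 1.02 (highest) cpm with ethanol (2.45 ± 0.36 (SE, adjusted p = 0.00037)). Neither day overlapped, and both calls were kept in every fit without 1 library. Col6a5 rose on day 8 from 1.22 (lowest), 1.61 (median) and 2.52 (highest) cpm to 4.42, 7.22, 10.9, 6.17 and 4.30 cpm (1.85 ± 0.28 (SE, adjusted p = 0.00044)). Col6a6 fell instead, on day 5 from 14.2, 14.1 and 25.3 cpm to 6.71, 7.02 and 6.93 cpm (-1.37 ± 0.26 (SE, adjusted p = 0.013), lost without MC903 replicate 2) and on day 8 from 13.5 (lowest), 19.03 (median) and 27.7 (highest) cpm to 1.92, 5.48, 7.14, 11.9 and 5.70 cpm (-1.63 ± 0.32 (SE, adjusted p = 0.0030)), without overlap on either day. All 3 day 8 calls were also made in each cohort alone.

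Among the FACITs, Col14a1, a marker of fibroblast-rich connective tissue, was lower early. It stood at 91.6, 107, 93.7 and 82.7 cpm with MC903 and 149, 155, 204 and 132.6 cpm with ethanol at 6 hours (-0.77 ± 0.14 (SE, adjusted p = 0.0081)), without overlap and in all 8 fits without 1 library. On day 5 the values were 65.5, 87.5 and 81.3 cpm and 106, 123.6 and 132.7 cpm (-0.63 ± 0.17 (SE, adjusted p = 0.047)), a call lost whichever 1 of the 6 libraries was left out (-0.73 to -0.52), and on day 8 they were 27.2, 59.01, 109, 89.3 and 72.9 cpm and 73.996 (lowest), 116.4 (median) and 129.01 (highest) cpm (-0.63 ± 0.28 (SE, adjusted p = 0.12)). Col16a1 fell on day 5 (53.2, 44.2 and 54.9 cpm with MC903, 89.5, 76.2 and 79.1 cpm with ethanol, -0.68 ± 0.16 (SE, adjusted p = 0.025)) and day 8 (60.9, 72.8, 70.8, 92.3 and 77.8 cpm with MC903, 75.9 (lowest), 105 (median) and 130.4 (highest) cpm with ethanol, -0.52 ± 0.15 (SE, adjusted p = 0.027)), kept in 2 of 6 and 6 of 11 fits. The day 8 groups overlapped. Col20a1 fell on day 8 without overlap (0.498 to 1.34 cpm with MC903, 1.89 to 3.47 cpm with ethanol, -1.13 ± 0.28 (SE, adjusted p = 0.012)). Col12a1, which is known to rise in mechanically loaded matrix, stood at 76.8, 62.6, 124.97, 135 and 145 cpm with MC903 and 96.0 (lowest), 127.6 (median) and 147 (highest) cpm with ethanol on day 8 (-0.18 ± 0.21 (SE, adjusted p = 0.57)). Col9a1, Col9a2 and Col19a1 were near the detection limit in skin (medians of 0.00900, 0.0259 and 0.0277 cpm per kb with ethanol).

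Among hexagonal network and membrane-bound genes, Col8a1 rose at 6 hours and Col23a1 on days 5 and 8. At 6 hours Col8a1, a short-chain collagen of vessel walls and remodelling matrix, was the only collagen gene called higher, at 15.6, 10.9, 13.1 and 15.1 cpm with MC903 and 3.99, 3.03, 3.83 and 3.87 cpm with ethanol (1.90 ± 0.15 (SE, adjusted p = 0.00020)), without overlap. On day 8 it stood at 2.07, 3.49, 4.49, 3.94 and 4.14 cpm with MC903 and 3.82 (lowest), 4.81 (median) and 7.85 (highest) cpm with ethanol (-0.43 ± 0.20 (SE, adjusted p = 0.15)). Its relative Col8a2 fell on day 8 from 6.87 (lowest), 8.12 (median) and 11.4 (highest) cpm with ethanol to 2.26, 3.64, 2.54, 6.54 and 4.67 cpm with MC903 (-1.13 ± 0.20 (SE, adjusted p = 0.0013)), also without overlap. Col10a1, the hypertrophic cartilage collagen, ranged over 0 to 0.280 cpm and 0 to 0.423 cpm. Col23a1, a transmembrane collagen, stood at 37.1, 40.02 and 25.3 cpm with MC903 and 15.9 and 17.96 cpm with ethanol on day 2 (1.01 ± 0.32 (SE, adjusted p = 0.86)). Without the library that stood apart this was 1.19 (adjusted p = 0.228). Pairing the remaining libraries by number gave an adjusted p of 0.0281, but on 2 pairs, too few to take the numbers as pairs. Col23a1 rose on day 5 from 18.1, 17.7 and 16.5 cpm to 72.7, 52.8 and 49.4 cpm (1.74 ± 0.19 (SE, adjusted p = 0.0013)), and on day 8 from 7.88 (lowest), 13.4 (median) and 16.4 (highest) cpm to 56.6, 73.8, 65.9, 34.6 and 40.7 cpm (2.01 ± 0.22 (SE, adjusted p = 3.1e-05)). Neither of these 2 days overlapped, and every fit without 1 library kept both calls. Col13a1, which is concentrated at cell adhesions, ranged over 1.59 to 4.63 cpm with MC903 and 0.544 to 2.74 cpm with ethanol on day 8 (1.05 ± 0.32 (SE, adjusted p = 0.031)), with overlap, and was kept in 5 of 11 fits. Col26a1 fell (-0.62 ± 0.20 (SE, adjusted p = 0.037), 3 of 11 fits), and Col28a1, at 5.03, 5.77, 6.22, 6.13 and 5.14 cpm with MC903 and 5.19 (lowest), 6.39 (median) and 7.31 (highest) cpm with ethanol, was not called (-0.17 ± 0.14 (SE, adjusted p = 0.42)).

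**Figure D3:**
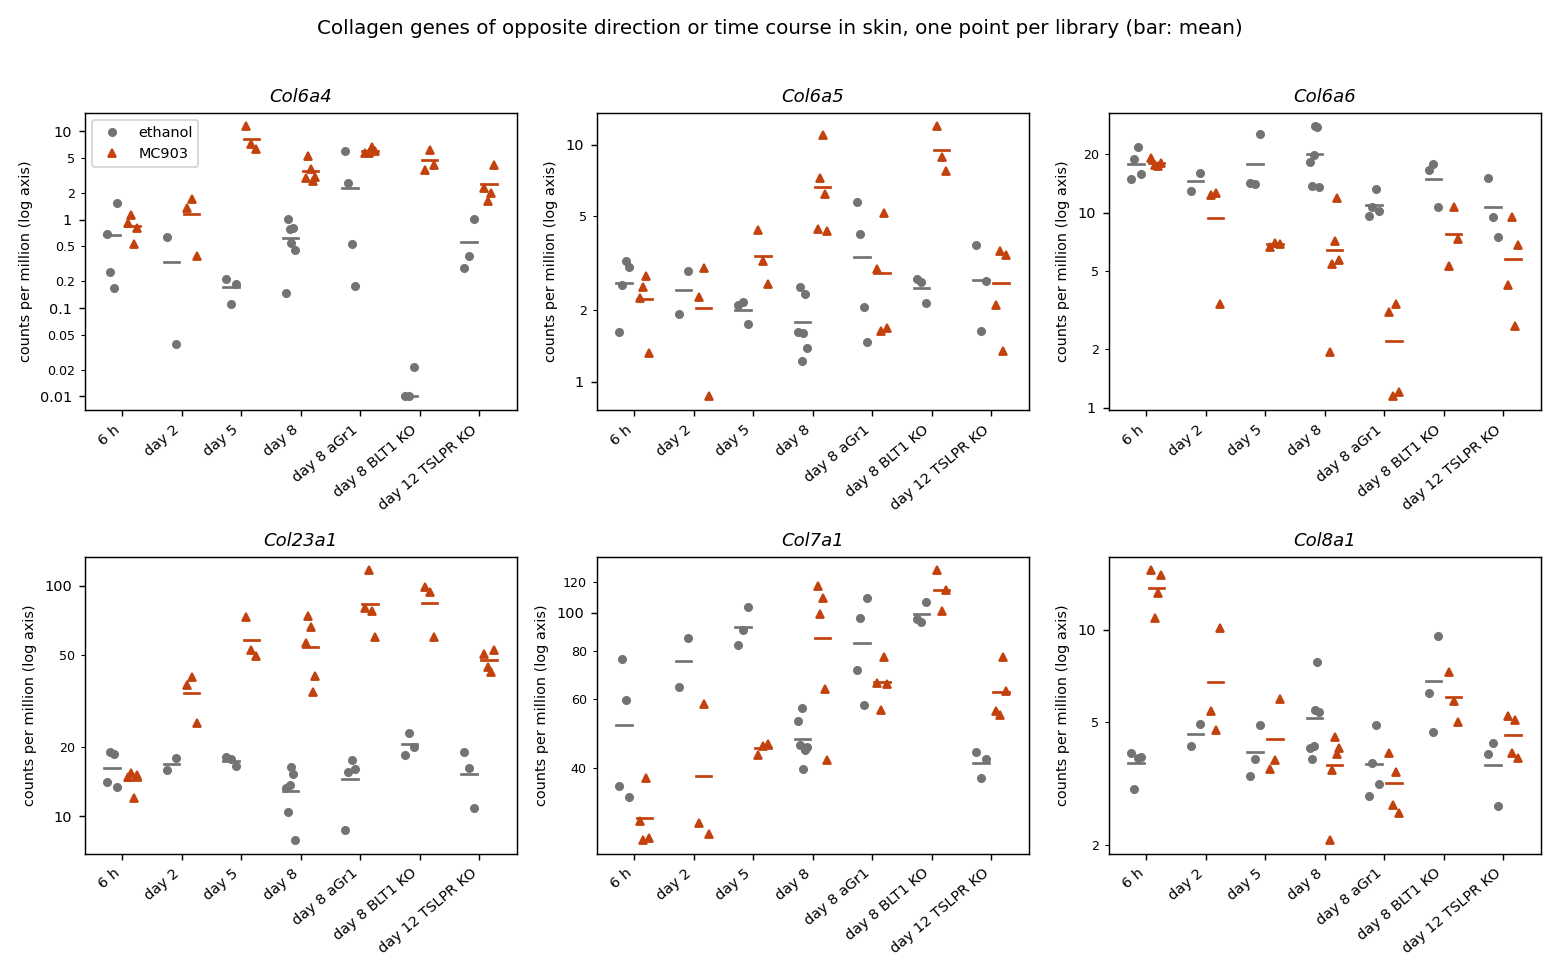
Expression of Col6a4, Col6a5, Col6a6, Col23a1, Col7a1 and Col8a1 in skin (cpm, log axis), 1 point for each library, with MC903 and ethanol side by side. Values under 0.01 cpm are drawn at 0.01 cpm. Col23a1 and Col6a4 are above ethanol on days 5 and 8, Col6a6 is below, and Col8a1 is above at 6 hours and not at day 8.

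The change with time was itself tested as the difference between the log2 fold changes of day 8 and of 6 hours. It was called for 17 of 44 genes, 7 upward and 10 downward, where 11.2% and 8.58% of all genes were. Col23a1 (2.22 ± 0.30 (SE, adjusted p = 5.1e-05)), Col6a5 (2.12 ± 0.43 (SE, adjusted p = 0.0019)), Col6a4 (2.09 ± 0.70 (SE, adjusted p = 0.042)), Col7a1 (1.54 ± 0.31 (SE, adjusted p = 0.0022)), Col5a2 (1.14 ± 0.24 (SE, adjusted p = 0.0024)), Col6a3 (1.12 ± 0.34 (SE, adjusted p = 0.024)) and Col17a1 (0.87 ± 0.20 (SE, adjusted p = 0.0047)) were higher relative to ethanol at day 8 than at 6 hours. Col8a1 (-2.31 ± 0.27 (SE, adjusted p = 1.3e-05)), Col6a6 (-1.63 ± 0.41 (SE, adjusted p = 0.0086)), Col4a5 (-1.56 ± 0.31 (SE, adjusted p = 0.0018)), Col4a4 (-1.30 ± 0.35 (SE, adjusted p = 0.012)), Col4a3 (-1.21 ± 0.29 (SE, adjusted p = 0.0059)) and Col4a6 (-1.03 ± 0.35 (SE, adjusted p = 0.047)) were among those lower. For Col1a1 the difference was 0.08 ± 0.45 (SE, adjusted p = 0.94) and for Col1a2 -0.06 ± 0.38 (SE, adjusted p = 0.95), so a shift of either gene between these times was not detected. Between day 8 and day 5, 1 gene was called upward and 1 downward, against 0.706% and 0.916% of all genes. Col7a1 differed by 1.78 ± 0.26 (SE, adjusted p = 0.0038), kept in all 17 fits without 1 library, and Col6a4 by -3.09 ± 0.63 (SE, adjusted p = 0.025), kept in 14 of 17. Each earlier day is a set of libraries of its own, so day and batch cannot be told apart.

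The injected mice addressed whether neutrophil depletion altered the skin response at day 8. In PBS-injected mice, with 2 MC903 and 3 ethanol libraries, 2 collagen genes rose and none fell of 44 tested, where 3.26% and 0.721% of all genes did. An unadjusted p under 0.05 was found for 16 of these 44 and for 4382 of 24416 genes. Col6a4 stood at 4.12 and 4.004 cpm with MC903 and 0.308, 0.157 and 0.666 cpm with ethanol (3.42 ± 0.51 (SE, adjusted p = 0.020)), and Col23a1 at 55.8 and 53.1 cpm and 17.8, 18.1 and 14.9 cpm (1.69 ± 0.18 (SE, adjusted p = 0.0060)), each kept in 2 of 5 fits without 1 library. DESeq2 called 9 members in these libraries, a count given without the share of all genes it called. None of 44 differed between PBS-injected and uninjected mice in the size of the MC903 effect (0.0146% of all genes did). Of the members 2 had an unadjusted p under 0.05, as did 725 of 27367 genes.

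In aGr1-injected mice 6 collagen genes rose and 12 fell of 43, where 15.1% and 17.5% of all genes did (32.6% in either direction). Of the type IV chains, Col4a3 to Col4a6 were lower, as in uninjected mice. Col4a1 and Col4a2 were called higher here, but the test of a difference from uninjected mice called neither. Col4a5 stood at 5.83, 3.88, 4.77 and 2.98 cpm with MC903 and 15.4, 16.7, 21.8 and 16.9 cpm with ethanol (-2.02 ± 0.22 (SE, adjusted p = 0.00021)), and Col4a6 at 2.93, 2.43, 2.76 and 2.49 cpm and 10.7, 12.5, 15.8 and 16.4 cpm (-2.38 ± 0.18 (SE, adjusted p = 3.0e-05)). Col4a3 (-0.95 ± 0.22) and Col4a4 (-0.78 ± 0.19) fell too, and all 4 calls were kept in every fit without 1 library. Col4a1, at 483, 498, 513 and 284 cpm with MC903 and 337, 214, 231 and 259.7 cpm with ethanol, rose (0.77 ± 0.22 (SE, adjusted p = 0.028)), as did Col4a2 at 309.8, 310.0, 314 and 162 cpm and 199.9, 135, 142 and 171 cpm (0.76 ± 0.23 (SE, adjusted p = 0.033)), but both overlapped between groups and were kept in 2 of 8 fits, those without MC903 replicate 4 or ethanol replicate 1. Col23a1 rose from 8.75, 15.6, 17.4 and 16.002 cpm to 79.6, 116.8, 77.5 and 60.04 cpm (2.53 ± 0.26 (SE, adjusted p = 0.00017)), Col28a1 from 1.9999, 2.52, 3.34 and 2.93 cpm to 7.49, 5.96, 6.31 and 6.84 cpm (1.30 ± 0.19 (SE, adjusted p = 0.0010)), and Col13a1 from 1.33, 2.33, 2.18 and 2.29 cpm to 4.94, 4.61, 4.90 and 2.93 cpm (1.10 ± 0.24 (SE, adjusted p = 0.0085)), all without overlap. Col14a1 fell from 46.7, 57.1, 60.6 and 42.96 cpm to 20.5, 14.7, 27.5 and 9.41 cpm (-1.52 ± 0.29 (SE, adjusted p = 0.0042)), and Col6a6 from 9.62, 10.7, 13.3 and 10.3 cpm to 3.09, 1.14, 3.42 and 1.20 cpm (-2.31 ± 0.36 (SE, adjusted p = 0.0016)). Col1a1 (-0.63 ± 0.43 (SE, adjusted p = 0.29)), Col1a2 (-0.80 ± 0.38 (SE, adjusted p = 0.13)) and Col3a1 (-0.20 ± 0.36 (SE, adjusted p = 0.71)) were not called. Alongside, 6 of 8 hair follicle markers fell (12.4 to 380.1 cpm with MC903 and 156 to 4459 cpm with ethanol) and 7 of 8 adipocyte markers fell (544 to 983 cpm with MC903 and 1420.1 to 2987 cpm with ethanol), which was not tested as a cause.

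The MC903 effect differed between aGr1-injected and uninjected mice for 4 of 44 genes, 2 in each direction, where 1.2% of all genes were higher and 3.36% lower. Col28a1 differed by 1.49 ± 0.22 (SE, adjusted p = 0.0029), kept in all 19 fits without 1 library, and Col26a1 by 1.18 ± 0.29 (SE, adjusted p = 0.026), kept in 18. Col7a1 differed by -1.05 ± 0.27 (SE, adjusted p = 0.030), kept in 11 of 19, and Col6a5 by -2.07 ± 0.57 (SE, adjusted p = 0.043), kept in 7 of 19. Measured against the PBS-injected mice, which received injections as the aGr1 mice did, none of the 4 was called, and that comparison rests on 5 PBS libraries.

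The knockouts addressed whether the skin changes depend on TSLP or leukotriene B4 signalling. In TSLPR KO skin at day 8 (3 and 2 libraries), no collagen gene rose and 1 fell of 43, where 1.31% and 1.14% of all genes did. This was Col4a6, at 5.08, 7.06 and 7.78 cpm with MC903 and 22.6 and 17.995 cpm with ethanol (-1.61 ± 0.26 (SE, adjusted p = 0.014)), lost without MC903 replicate 1 or ethanol replicate 1. Another 10 members had an unadjusted p under 0.05 without passing adjustment, and 3631 of 24292 genes had such a p, called or not. Col23a1 stood at 22.8, 38.7 and 33.3 cpm with MC903 and 19.6 and 14.2 cpm with ethanol (0.90 ± 0.28 (SE, adjusted p = 0.16)). None of 44 genes was called for a difference from wild type (0.177% of all genes were). Of the members 8 had an unadjusted p under 0.05, as did 3460 of 27120 genes. For Col23a1 that difference was -1.08 ± 0.38 (SE, adjusted p = 0.27) and for Col1a1 0.22 ± 0.61 (SE, adjusted p = 0.92). In TSLPR KO skin at day 12, 3 collagen genes rose and 4 fell of 44, where 5.41% and 4.62% of all genes did. Col23a1 rose from 18.9, 16.2 and 10.8 cpm to 50.6, 44.4, 42.3 and 52.4 cpm (1.63 ± 0.20 (SE, adjusted p = 0.0019)) and was kept in all 7 fits without 1 library. Col4a6 fell from 13.8, 10.6 and 9.78 cpm to 4.96, 5.35, 2.32 and 5.10 cpm (-1.36 ± 0.28 (SE, adjusted p = 0.019)), lost without ethanol replicate 1. Col4a4 (-1.02), Col4a5 (-1.07), Col9a3 (-1.18), Col6a4 (2.16) and Col7a1 (0.60) were the other log2 fold changes called, each kept in 1 to 3 of 7 fits. On this day 2 of 8 keratinocyte markers (24878 to 34404 cpm with MC903 and 8715 to 14193 cpm with ethanol) and 2 of 9 leukocyte markers rose (278 to 338 cpm with MC903 and 180.1 to 199.9 cpm with ethanol), and 4 of 10 skeletal muscle markers fell (5442 to 10690.3 cpm with MC903 and 9626 to 20862 cpm with ethanol), and their part was not tested. Day 12 of wild-type mice was not used here, so this day has no wild-type value beside it.

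In libraries labelled BLT1 KO at day 8, 12 collagen genes rose and 11 fell of 42, against 14.1% and 14.6% of all genes. Col4a1 stood at 583, 464 and 376 cpm with MC903 and 222, 177 and 126.1 cpm with ethanol (1.44 ± 0.24 (SE, adjusted p = 0.0025)), and Col4a2 at 455, 440.2 and 316 cpm and 173, 141 and 97.8 cpm (1.56 ± 0.24 (SE, adjusted p = 0.0014)). Col4a6 fell from 17.7, 20.7 and 17.9 cpm to 2.67, 1.45 and 2.03 cpm (-3.19 ± 0.25 (SE, adjusted p = 5.5e-05)), with Col4a3 (-1.41), Col4a4 (-1.68) and Col4a5 (-2.08) lower too. Type I collagen fell, Col1a2 from 4615, 7554 and 8918 cpm to 3433, 3405 and 2703 cpm (-1.14 ± 0.25 (SE, adjusted p = 0.0089)) and Col1a1 by a log2 fold change of -0.91 ± 0.25 (SE, adjusted p = 0.026), the latter kept in 1 of 6 fits. The other fibrillar calls were upward, Col11a1 from 1.94, 2.33 and 3.21 cpm to 8.02, 6.19 and 7.41 cpm (1.53 ± 0.26 (SE, adjusted p = 0.0025)), Col5a3 (0.86) and Col5a2 (0.68). Col12a1 rose from 40.6, 39.3 and 36.4 cpm to 157, 109 and 112.2 cpm (1.70 ± 0.17 (SE, adjusted p = 0.00014)), Col18a1 from 63.9, 64.1 and 67.2 cpm to 234, 187 and 185 cpm (1.63 ± 0.14 (SE, adjusted p = 7.2e-05)) and Col6a3 from 281, 305 and 259 cpm to 858, 797 and 616 cpm (1.43 ± 0.17 (SE, adjusted p = 0.00038)). Col6a4 was at no more than 1 count in any ethanol library and at 3.64, 6.21 and 4.16 cpm with MC903. The mean of these is at least 83.2-fold higher against a floor of 3 counts per library. Conversely, Col9a2 had 0 counts in all MC903 libraries and stood at 0.0297, 0.219 and 0.556 cpm with ethanol. That ethanol mean was 4.89-fold above the floor of 0.0549 cpm, but ethanol replicate 1 lay under the floor, so the bound does not hold for every library.

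The difference of these effects from wild type was called for 7 of 44 genes, 6 upward and 1 downward, against 4.35% and 2.6% of all genes. Col11a1 (3.13 ± 0.46 (SE, adjusted p = 0.00057)), Col12a1 (1.93 ± 0.33 (SE, adjusted p = 0.0020)) and Col18a1 (1.64 ± 0.27 (SE, adjusted p = 0.0017)) were kept in all 17 fits without 1 library, as was Col6a4, whose ethanol libraries lie at the floor. Col4a2 (1.41 ± 0.34 (SE, adjusted p = 0.018)), Col4a1 (1.17 ± 0.30 (SE, adjusted p = 0.025)) and Col4a6 (-1.57 ± 0.43 (SE, adjusted p = 0.035)) were kept in 15 of 17, 14 of 17 and 8 of 17. The ethanol libraries themselves differed in composition between genotypes. Hair follicle markers summed to 27.1 to 360.1 cpm in ethanol libraries labelled BLT1 KO against 8539.9 to 24476 cpm in wild-type ethanol libraries of day 8, and all 10 muscle markers fell with MC903 (4231 to 11200.1 cpm with MC903 and 25973 to 44639 cpm with ethanol). The BLT1 KO libraries form a set of their own, so genotype and batch cannot be told apart.

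**Figure D4:**
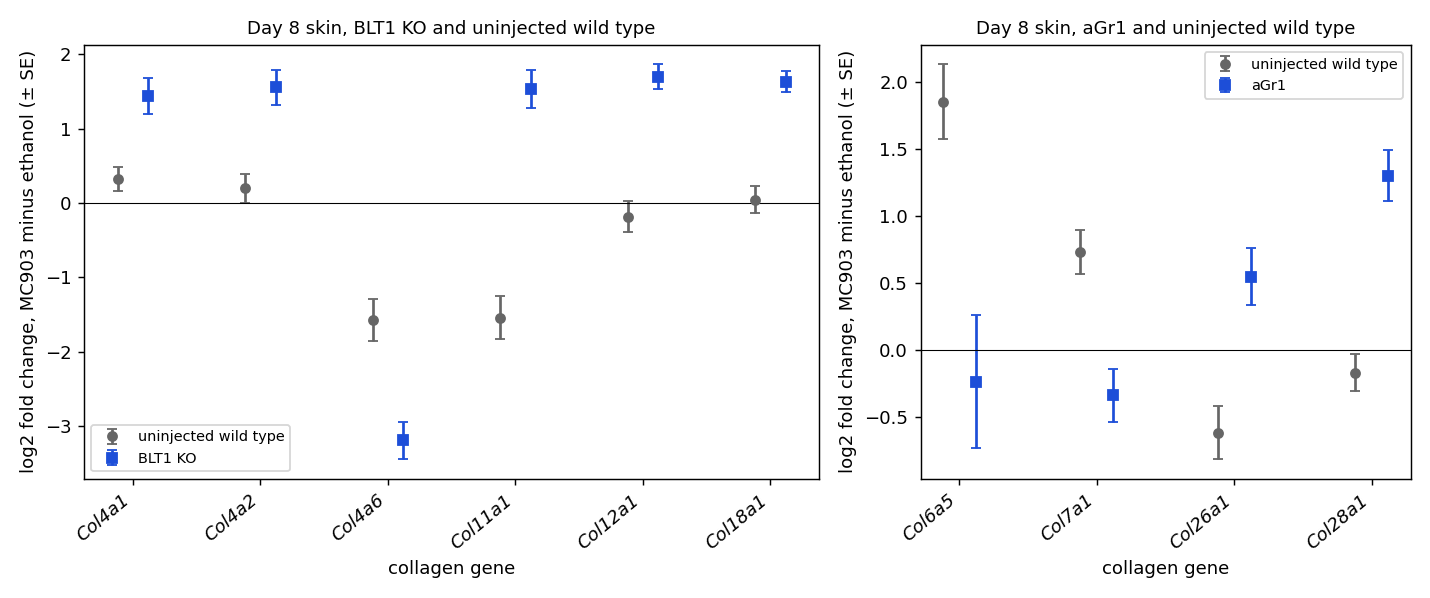
Log2 fold change of MC903 over ethanol (points, with bars of ± SE) for the collagen genes whose MC903 effect at day 8 differed, between libraries labelled BLT1 KO and wild type on one side and between aGr1-injected and uninjected wild-type mice on the other. Col6a4 is left out of the BLT1 KO panel because its ethanol libraries were at or under 1 count. Col11a1, Col12a1 and Col18a1 are above 0 in BLT1 KO and below or near 0 in wild type.

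The trigeminal ganglion, which holds the sensory neurons of the cheek, was examined for collagen changes at a distance from the treated skin. In uninjected wild-type mice no collagen gene of 44 was called at 6 hours (0% of all genes), day 2 (0%), day 5 (0.00823%) or day 8 (0.16%). An unadjusted p under 0.05 was reached by 8, 2, 2 and 9 members. Over all genes it was reached by 2034 of 25319, 1527 of 24092, 938 of 24300 and 1787 of 25600. On day 8 Col3a1 stood at 42.9, 47.6, 55.003, 72.1 and 45.6 cpm with MC903 and 70.01, 101, 100.5, 176 and 58.6 cpm with ethanol (-0.94 ± 0.23 (SE, adjusted p = 0.26)), and Col14a1 at 18.02, 23.7, 52.5, 38.2 and 36.3 cpm and 38.0, 46.9, 57.1, 90.5 and 49.3 cpm (-0.79 ± 0.17 (SE, adjusted p = 0.16)). In PBS-injected mice 1 gene rose and 5 fell of 44, against 1.91% and 1.45% of all genes. Col3a1 fell from 73.7, 72.7 and 70.6 cpm to 55.01, 46.1, 39.0 and 41.9 cpm (-0.67 ± 0.09 (SE, adjusted p = 0.0019)) and Col14a1 from 39.8, 39.6 and 37.7 cpm to 25.2, 28.3, 24.2 and 28.8 cpm (-0.55 ± 0.07 (SE, adjusted p = 0.0015)), both without overlap and in all 7 fits without 1 library. Col1a2 (-0.36 ± 0.07 (SE, adjusted p = 0.013)), Col1a1 (-0.51 ± 0.12 (SE, adjusted p = 0.059)) and Col9a2 (-0.39 ± 0.09 (SE, adjusted p = 0.039)) fell, and Col7a1 rose (0.54 ± 0.12 (SE, adjusted p = 0.039)), the first of these lost without ethanol replicate 3 and the others kept in 2 to 4 of 7 fits.

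In TG of aGr1-injected mice 1 gene rose and 9 fell of 44, against 0.875% and 1.01% of all genes (1.88% in either direction). Col1a1 fell from 68.7, 101, 101 and 100.4 cpm to 43.7, 28.9, 48.3 and 41.8 cpm (-1.19 ± 0.15 (SE, adjusted p = 0.0019)), Col1a2 from 229, 262, 304 and 300.4 cpm to 189.7, 132.5, 169 and 155 cpm (-0.76 ± 0.12 (SE, adjusted p = 0.0076)), Col3a1 from 70.3, 72.01, 87.1 and 73.4 cpm to 24.4, 18.5, 31.6 and 22.9 cpm (-1.63 ± 0.14 (SE, adjusted p = 7.9e-05)) and Col14a1 from 39.6, 38.5, 39.96 and 40.7 cpm to 18.5, 11.1, 21.3 and 13.5 cpm (-1.30 ± 0.16 (SE, adjusted p = 0.0013)). None of these overlapped, and all 4 were kept in every fit without 1 library. Col15a1 (-0.99 ± 0.16 (SE, adjusted p = 0.0078)) and Col6a3 (-0.71 ± 0.14 (SE, adjusted p = 0.027)) also fell, the latter lost without MC903 replicate 4, as did Col2a1 (-1.40), Col8a1 (-0.74) and Col9a2 (-0.55), while Col10a1 rose (1.33), each of these 4 kept in 2 to 5 of 8 fits. The 10 fibroblast markers summed to 1179 to 1577 cpm with MC903 and 1309 to 1747 cpm with ethanol. The 8 meningeal fibroblast markers summed to 10.7 to 56.3 cpm with MC903 and 36.1 to 52.6 cpm with ethanol. In TG of TSLPR KO mice at day 8, Thy1 alone stood at 563 to 615 cpm within fibroblast sums of 1167 to 1461 cpm. The part of either list was not tested. No gene differed between aGr1-injected and uninjected mice in the MC903 effect (0% of all genes). An unadjusted p under 0.05 was found for 5 members and for 1709 of 27015 genes. For Col3a1 the difference was -0.69 ± 0.30 (SE, adjusted p = 0.78).

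In TG of TSLPR KO mice no member was called at day 8 of 43 (0% of all genes), with 2 members and 1886 of 23402 genes at an unadjusted p under 0.05. In its MC903 replicate 1, which stood apart, skeletal muscle markers summed to 178 cpm against 15.7 to 18.99 cpm in the other 3 libraries, hair follicle markers to 397 cpm against 21.3 to 27.5 cpm, Col17a1 to 19.9 cpm against at most 0.557 cpm and Col1a1 to 247 cpm against 79.5 to 105 cpm. Without that library 0 members were called and without MC903 replicate 2 there were 4, each fit with 1 MC903 library left. On day 12, 1 rose and none fell of 44, against 0.289% and 0.0154% of all genes. This was Col1a1, at 344, 418, 162 and 177 cpm with MC903 and 110.0, 114.9, 82.9 and 114.8 cpm with ethanol (1.38 ± 0.27 (SE, adjusted p = 0.082)). Col1a1 fell in the injected mice, but those were wild type at day 8, so day, genotype, injection and library set all differ. The day 12 call was kept in 2 of 8 fits without 1 library, those without MC903 replicate 3 or 4. Same-numbered libraries deviated together here, and a fit blocked on that number gave 1.28 for Col1a1 (adjusted p = 0.0084), with Col1a2 at 0.43 and Col14a1 at -0.39 called as well. The 10 cartilage and bone markers summed to 53.96 to 81.7 cpm with MC903 and 57.8 to 65.4 cpm with ethanol, and their part was not tested.

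In spinal cord more collagen genes fell than rose. At day 8 in uninjected mice 4 genes rose and 15 fell of 44, where 5.05% and 7.14% of all genes did, and the median log2 fold change was -0.34 beside 0.01 for all genes. Col1a1 fell from 42.1, 71.4, 82.8, 82.9 and 66.6 cpm with ethanol to 13.2, 13.03, 16.7 and 13.1 cpm with MC903 (-2.31 ± 0.18 (SE, adjusted p = 2.2e-06)). Col1a2 fell from 86.8, 136, 155, 131.9 and 117.2 cpm to 47.4, 56.7, 53.3 and 48.8 cpm (-1.28 ± 0.14 (SE, adjusted p = 4.0e-05)), and Col3a1 from 15.8, 48.6, 77.3, 37.9 and 38.4 cpm to 5.45, 8.15, 7.41 and 5.23 cpm (-2.73 ± 0.35 (SE, adjusted p = 0.00018)). None of the 3 overlapped, and each was kept in all 9 fits without 1 library, as was Col14a1, which overlapped and fell from 1.26, 4.01, 6.42, 4.02 and 3.71 cpm to 1.13, 1.48, 1.08 and 0.772 cpm (-1.78 ± 0.37 (SE, adjusted p = 0.0060)). Col15a1 (-1.46 ± 0.21 (SE, adjusted p = 0.00043)), Col12a1 (-1.12 ± 0.17 (SE, adjusted p = 0.00059)), Col11a2 (-0.90 ± 0.16 (SE, adjusted p = 0.0026)) and Col8a2 (-1.12 ± 0.22 (SE, adjusted p = 0.0045)) fell without overlap. Col23a1, higher in skin, was lower in spinal cord, at 15.995, 15.02, 12.9 and 16.1 cpm with MC903 and 26.02, 26.3, 25.2, 25.6 and 25.8 cpm with ethanol (-0.78 ± 0.09 (SE, adjusted p = 8.4e-05)). Col5a3, a type V chain, rose without overlap from 2.55, 5.06, 5.22, 6.31 and 5.26 cpm to 12.5, 11.3, 11.6 and 8.15 cpm (1.16 ± 0.21 (SE, adjusted p = 0.0027)). The remaining calls were Col4a5 (-0.52), Col5a2 (-0.54), Col6a2 (-1.17), Col8a1 (-1.001), Col9a3 (-0.51) and Col18a1 (-0.58) downward and Col6a4 (1.61), Col19a1 (0.77) and Col24a1 (0.64) upward, the 3 upward ones kept in 2 to 4 of 9 fits. Of 8 meningeal fibroblast markers 3 fell (17.3 to 37.1 cpm with MC903 and 27.02 to 86.4 cpm with ethanol), of 10 fibroblast markers 5 fell (558 to 726 cpm with MC903 and 617 to 763 cpm with ethanol), of 8 endothelial markers 6 fell (63.8 to 76.99 cpm with MC903 and 97.5 to 132.03 cpm with ethanol), and of 8 Schwann cell and satellite glia markers 5 fell (20394 to 26641 cpm with MC903 and 26949.7 to 36799.8 cpm with ethanol). In spinal cord of PBS-injected mice, Thy1 alone stood at 352 to 476 cpm within fibroblast sums of 508 to 648 cpm. There, 1 gene set most of that sum. The part of these markers in the results was not tested.

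In spinal cord of PBS-injected mice, with 2 libraries a group, no gene was called among members or all genes (0%). An unadjusted p under 0.05 was found for 9 members and for 1571 of 24573 genes. DESeq2 called 2 members, a count given without the share of all genes it called. In aGr1-injected mice 5 collagen genes rose and 8 fell of 44, against 4.54% and 6.79% of all genes. Col3a1 ranged over 6.91 to 61.5 cpm with ethanol and 3.49 to 13.9 cpm with MC903 (-1.87 ± 0.41 (SE, adjusted p = 0.0052)), with overlap. Col5a3 rose from 17.1 (lowest), 18.3 (median) and 20.9 (highest) cpm to 24.5 (lowest), 29.5 (median) and 35.99 (highest) cpm (0.70 ± 0.08 (SE, adjusted p = 9.1e-06)), and Col9a3 (-0.52 ± 0.08 (SE, adjusted p = 0.00023)), Col11a2 (-0.64 ± 0.12 (SE, adjusted p = 0.0014)) and Col16a1 (-0.20 ± 0.05 (SE, adjusted p = 0.016)) fell, all without overlap. Col23a1 fell with overlap (-0.50 ± 0.10 (SE, adjusted p = 0.0032)), and Col15a1 (-0.62 ± 0.17 (SE, adjusted p = 0.019)) likewise. Col1a1 was not called (-0.75 ± 0.42 (SE, adjusted p = 0.30)). Alongside, 4 of 8 Schwann cell and satellite glia markers fell (17369 to 20760.2 cpm with MC903 and 22107 to 25976 cpm with ethanol), as did 3 of 8 endothelial markers (101 to 129.3 cpm with MC903 and 116.6 to 150.3 cpm with ethanol) and 3 of 10 skeletal muscle markers (169 to 339 cpm with MC903 and 179 to 737 cpm with ethanol), while of 10 cartilage and bone markers 1 rose and 5 fell (54.8 to 71.6 cpm with MC903 and 63.7 to 75.5 cpm with ethanol), and their part was not tested. No member differed in its MC903 effect between aGr1-injected and uninjected mice (0.532% of all genes did). An unadjusted p under 0.05 was found for 10 members and for 3730 of 28747 genes. For Col1a1 the difference was 1.53 ± 0.60 (SE, adjusted p = 0.26).

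**Figure D5:**
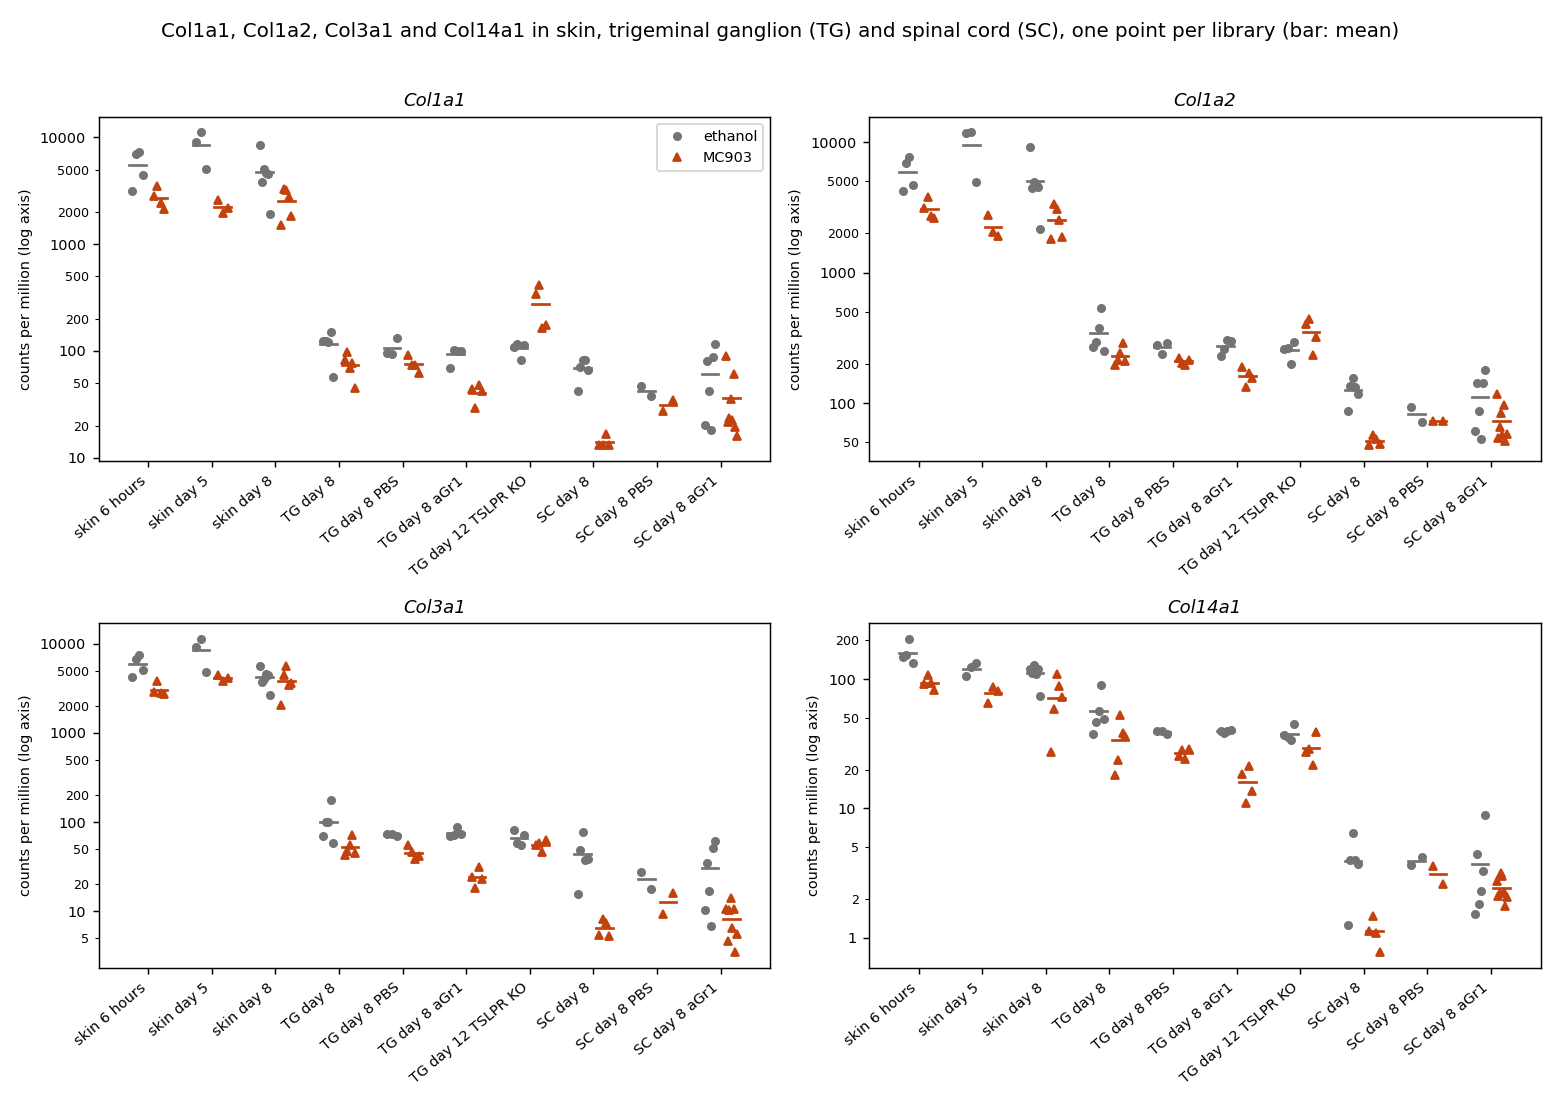
Expression of Col1a1, Col1a2, Col3a1 and Col14a1 (cpm, log axis) in skin, TG and spinal cord, 1 point for each library with MC903 and ethanol side by side. MC903 libraries are below ethanol for Col1a1 and Col3a1 in spinal cord of uninjected mice and in TG of aGr1-injected mice, without overlap.

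Genes that fold, process, cross-link and bind collagen were counted from lists chosen with earlier results of these data known. At 6 hours in wild-type skin none of 19 folding and modification enzymes and chaperones rose and 7 fell, and of 13 processing and cross-linking enzymes 1 rose and 6 fell, where 5.51% of all genes rose and 7.47% fell. By day 8 the counts were 4 up and 2 down of 19, and 2 up and 2 down of 13, beside 12.2% up and 11.2% down for all genes, so neither list is set apart from all genes by these counts. P4ha3, a prolyl 4-hydroxylase subunit, rose on day 8 from 0 to 0.359 cpm with ethanol to 2.36 to 4.73 cpm with MC903 (3.94 ± 0.45 (SE, adjusted p = 5.5e-05)), with P4hb (0.61 ± 0.11 (SE, adjusted p = 0.0021)), the shared subunit of that enzyme, and Plod3 (0.50 ± 0.12 (SE, adjusted p = 0.011)), a lysyl hydroxylase. Lox, the lysyl oxidase that cross-links fibrils, rose (1.09 ± 0.21 (SE, adjusted p = 0.0025)), and Adamts3 (-1.91 ± 0.40 (SE, adjusted p = 0.0041)), a procollagen N-proteinase, and Pcolce2 (-1.13 ± 0.22 (SE, adjusted p = 0.0031)), an enhancer of procollagen C-proteinase, fell. Lox also stands in the fibroblast marker list. Among 9 collagen receptors 4 rose and none fell on day 8, including Lair1 (2.20 ± 0.32 (SE, adjusted p = 0.00037)), an inhibitory receptor of leukocytes, Mrc2 (0.89 ± 0.17 (SE, adjusted p = 0.0023)), which takes up collagen fragments, and Itga2 (1.14 ± 0.22 (SE, adjusted p = 0.0024)), a subunit of a collagen-binding integrin. On that day 7 of 10 leukocyte markers rose and 1 fell (279 to 642 cpm with MC903 and 119.1 to 219 cpm with ethanol), and their part was not tested.

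Of 16 fibril-associated proteoglycans and matrix genes, none rose and 6 fell at 6 hours, and 4 rose and 4 fell on day 8, against the same shares of all genes (5.51% and 7.47%, then 12.2% and 11.2%). Tnc (2.16 ± 0.27 (SE, adjusted p = 0.00012)), a matrix protein of wounds, Thbs2 (1.12 ± 0.16 (SE, adjusted p = 0.00025)) and Eln (0.80 ± 0.14 (SE, adjusted p = 0.0011)), the elastin gene, rose. Of 15 basement membrane partners 3 rose and 1 fell on day 8, which does not set the list apart from those shares. Lama3 (0.63 ± 0.15 (SE, adjusted p = 0.0086)), a chain of the laminin that lies beneath basal keratinocytes, rose, and Lama1 (-1.69 ± 0.46 (SE, adjusted p = 0.018)) fell. In spinal cord at day 8 the counts were none up and 6 down of 19 folding genes, 2 up and 4 down of 13 processing genes, none up and 4 down of 9 receptors, 1 up and 6 down of 15 fibril-associated genes, and none up and 4 down of 15 basement membrane partners, where 5.05% of all genes rose and 7.14% fell.

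Across the 61 skin libraries, log2 levels of the 29 collagen genes with a mean of at least 5 cpm varied together to different degrees. The median Pearson correlation over 406 pairs was 0.48, and within classes it was 0.473 for fibrillar, 0.461 for basement membrane and 0.846 for type VI genes. The 4 closest pairs were Col1a1 with Col1a2 (0.977), Col6a1 with Col6a2 (0.974), Col1a1 with Col3a1 (0.964) and Col1a2 with Col3a1 (0.959). Col4a1 with Col4a2, at 0.932, came after further pairs of fibrillar genes such as Col1a1 with Col5a1 (0.954) and after Col5a1 with Col6a2 (0.935). These values are a description, since the libraries share treatment, day and depth.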

How the data were processed

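Poly(A)-selected RNA was sequenced by the authors as single-end 50 bp reads, aligned to the mm10 genome with Bowtie2 and TopHat, and counted per gene with htseq-count. The deposited values are whole-number counts per Ensembl gene, not normalised. The annotation release and the strand setting are not given in the sources used here, and the 5 tally lines of each file (0 in all libraries) were left out. Of 46078 gene IDs, 45143 were matched to GENCODE M21 symbols, and all 44 collagen genes and the genes of the other lists were found. The collagen genes and all lists were chosen with earlier results of these data known.

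MC903 was compared with ethanol in 20 comparisons by edgeR 4.0.16 (R 4.3.3, TMM, glmQLFit and glmQLFTest) on genes with at least 10 counts over the libraries fitted, with Benjamini-Hochberg adjustment over all genes tested. The study's own tool, DESeq, was not used. Skin and TG of uninjected wild-type mice at day 8 came in 2 cohorts, told apart by the style of their titles, and had a cohort term. Effects were compared in 8 interaction fits. Genes given with values in every library (lowest, median and highest in groups of over 5) were those called on 2 or more wild-type days and the 3 of each class with the highest level per length in ethanol skin, and up to 3 genes of each partner list with the smallest p at day 8. A gene that this rule selected is not reported here. A count of 3 per library was taken as the floor where a group was at 0. The test was checked on simulated data. Alternatives were RLE size factors, DESeq2 1.42.0, filterByExpr, no filter, the replicate number as a block, each library left out, 1 fit over the 4 wild-type days, each cohort alone and no cohort term. Same-numbered libraries were taken as pairs where every correlation of their deviations from the group means was over 0.1 in 3 or more pairs, which held in TG on day 5 (0.192 to 0.405) and in TG of TSLPR KO mice on day 12 (0.239 to 0.640). Wild-type day 12 libraries (18) were left out. Library totals of 15931871 to 67342879 counts set the precision of low genes.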

Additional observations from a re-analysis of the deposited data

Results flagged for a closer look

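In 12 of 157 gene-by-group sets of 4 to 10 libraries with a reported collagen value, 1 library lay far from the others, where chance alone gives about 1 in 20. In skin these were Col3a1 at 3809 cpm in MC903 replicate 2 of the 6 hour group and Col4a6 at 2.32 cpm in MC903 replicate 3 of day 12 TSLPR KO. In aGr1-injected skin they were Col13a1 at 1.33 cpm in ethanol replicate 1, Col4a4 at 6.93 cpm in ethanol replicate 2, and Col4a1 at 284 cpm, Col4a2 at 162 cpm and Col13a1 at 2.93 cpm in MC903 replicate 4. In TG they were Col1a1 at 68.7 cpm in ethanol replicate 1 and Col15a1 at 41.8 cpm in MC903 replicate 3 of aGr1-injected mice, and Col1a1 at 82.9 cpm in ethanol replicate 3 of day 12 TSLPR KO. In spinal cord they were Col15a1 at 6.97 cpm in ethanol replicate 1 and Col1a1 at 16.7 cpm in MC903 replicate 3 of uninjected mice.

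A difference of the MC903 effect between conditions passed the test of that difference for 30 gene and condition pairs, given here as differences of log2 fold changes. Between aGr1-injected and uninjected skin these were 1.18 for Col26a1, -1.05 for Col7a1, 1.49 for Col28a1 and -2.07 for Col6a5. Between libraries labelled BLT1 KO and wild type they were 1.64 for Col18a1, 3.13 for Col11a1, -1.57 for Col4a6, 1.17 for Col4a1, 1.41 for Col4a2 and 1.93 for Col12a1, and 6.60 for Col6a4, a size that depends on the prior count because the BLT1 KO ethanol libraries held at most 1 count. Between day 8 and 6 hours the upward differences were 0.87 for Col17a1, 1.54 for Col7a1, 1.14 for Col5a2, 2.09 for Col6a4, 1.12 for Col6a3, 2.22 for Col23a1 and 2.12 for Col6a5. The downward ones were -0.997 for Col26a1, -1.32 for Col20a1, -1.39 for Col11a1, -1.03 for Col4a6, -1.56 for Col4a5, -0.60 for Col16a1, -1.63 for Col6a6, -1.30 for Col4a4, -2.31 for Col8a1 and -1.21 for Col4a3. Between day 8 and day 5 they were 1.78 for Col7a1 and -3.09 for Col6a4.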

How the results depend on the processing

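No collagen call changed direction under any alternative run. The 175 gene calls were kept in 175 fits with RLE size factors, 174 with DESeq2, 172 of 173 with filterByExpr, 172 without a filter, and in 1367 of 1763 fits that each left out 1 library. In wild-type skin 28 of 45 calls were kept in 1 fit over the 4 days, and of 18 calls on day 8 the cohort with bracketed titles alone kept 12, the other cohort 8 and the fit with no cohort term 17. Counts of called collagen genes moved by more than 1.5 times as follows. In skin, 1 fit over the 4 wild-type days gave 2 at 6 hours and 3 on day 2. DESeq2 gave 3 on day 2, 9 with PBS, 2 in TSLPR KO on day 8, 1 for the TSLPR KO difference and 11 for the BLT1 KO difference. No filter gave 6 with PBS and 4 in TSLPR KO on day 8, and day 8 in the cohort without bracketed titles alone gave 8. For the aGr1 difference, PBS-injected mice as the other condition gave 0 and that cohort 2. In TG, DESeq2 gave 4 on day 8, no filter gave 6 on day 8, 10 with PBS and 3 in TSLPR KO on day 8, the cohort with bracketed titles alone gave 2, and filterByExpr gave 0 in TSLPR KO on day 12. In spinal cord DESeq2 gave 2 with PBS and 1 for the aGr1 difference. The cause was not tested. These counts, and those under a block or with a library left out below, stand without the share of all genes called. They describe dependence on the processing and are not results about the members.

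With the replicate number as a block, 137 of 175 gene calls were kept. The block gave 2 calls in skin on day 2 and 2 in TSLPR KO on day 8, 1 in TSLPR KO on day 12, 4 in TG on day 8, 14 in TG with PBS, 3 in TG of TSLPR KO on day 12, 1 in spinal cord with PBS, 6 in spinal cord with aGr1 and 1 for the aGr1 difference in skin. Same-numbered libraries deviated together in 3 or more pairs in the TG groups named in the methods. On day 2 in skin both pairs did (0.193 and 0.241), too few to take the numbers as pairs. Elsewhere a number is shared and a call lost under the block is not a weaker effect. In spinal cord with PBS, same-numbered libraries deviated in opposite directions (correlation -0.474). A block with the numbers crossed, chosen after seeing the data, gave 6 calls among members and 955 among all genes. Since that pairing was picked from these values, its calls decide nothing about the members. The difference between MC903 and ethanol of each library's median log2(cpm + 0.5) over a class, which is not the median of fitted fold changes, differed from that of its log2 class sum, which the most abundant genes set, with 0.00932 against -0.91 in fibrillar genes at 6 hours, -0.24 against -1.49 on day 5 and -0.48 against -1.03 in spinal cord on day 8, and with -0.55 against -0.34 in basement membrane genes at 6 hours and -0.66 against -0.24 on day 5.

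Leaving out 1 library at a time, the calls in skin ranged from 3 (without ethanol replicate 3) to 14 at 6 hours, 5 (without MC903 replicate 2) to 18 on day 5, 13 to 17 on day 8, 0 to 7 with PBS (7 without ethanol replicate 2), 10 (without MC903 replicate 2) to 18 with aGr1, 0 to 2 in TSLPR KO on day 8, 18 to 23 in libraries labelled BLT1 KO and 1 (without ethanol replicate 1) to 11 (without MC903 replicate 3) in TSLPR KO on day 12, and stayed at 0 on day 2. In TG they ranged from 0 to 6 on day 2 (6 without ethanol replicate 2), 0 to 3 on day 8, 2 (without ethanol replicate 3) to 14 (without MC903 replicate 4) with PBS, 5 (without MC903 replicate 4) to 12 with aGr1, 0 to 4 in TSLPR KO on day 8 and 0 to 1 on day 12, and stayed at 0 at 6 hours and on day 5. In spinal cord they ranged from 15 to 25 on day 8, 0 to 14 with PBS (14 without MC903 replicate 2) and 9 to 15 with aGr1. For differences of effects in skin they ranged from 1 to 4 for aGr1, 4 to 10 for BLT1 KO, 12 to 17 for day 8 against 6 hours and 1 to 3 for day 8 against day 5, and stayed at 0 for PBS, for TSLPR KO and for aGr1 in TG and spinal cord. Where this left 1 library in a group, that library was assumed to vary like the others. Members under 1 cpm per kb in skin, such as Col9a1, Col10a1 and Col2a1, rest on few counts, and small groups limit what day 2, PBS and TSLPR KO comparisons can detect.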
